A study of Homo sapiens with 6 samples.

Results

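The genes described here are 10 members of the bypass group of receptor tyrosine kinases and a ligand, taken by symbol from the table of 26485 genes: the TAM receptors AXL, TYRO3 and MERTK, their ligand GAS6, the fibroblast growth factor receptors FGFR1, FGFR2, FGFR3 and FGFR4, the collagen receptor DDR1 and the WNT5A receptor ROR1. All 10 have a row, and 9 passed the filter on low counts. FGFR2 did not. The cells were PC-9, an established human lung adenocarcinoma line that carries an activating EGFR mutation. One group, shIFITM3, stably expressed a short hairpin RNA against IFITM3, an interferon-induced membrane protein, and the other, shControl, is labelled as expressing control shRNA, while the table's columns call it ShEV. The labels leave unclear if these control cells carry a hairpin or only the vector, and each fold change is against whichever it was. Each group had 3 libraries, labelled as biological replicates, made with a stranded mRNA kit from cells grown in serum. The labels name no drug, so these are levels in cells not stated to have met osimertinib. How many hairpins were used, and whether each population is a clone or a pool, is not given in the sources used here, and a separate effect of the IFITM3 hairpin itself cannot be told apart from that of IFITM3 loss.

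A receptor tyrosine kinase binds a ligand outside the cell, pairs with a second receptor, and phosphorylates tyrosines that recruit adaptors leading to PI3 kinase, AKT and ERK. When a drug blocks mutant EGFR, another receptor can feed the same adaptors, which is why AXL, the FGF receptors and MET are called bypass receptors in lung cancer. AXL, TYRO3 and MERTK are activated by GAS6, a vitamin K-dependent protein that also binds phosphatidylserine on membranes. FGF receptors need heparan sulfate or a klotho co-receptor beside their ligand. DDR1 responds to collagen rather than to a soluble factor, and ROR1 is a largely embryonic receptor that reappears in several cancers.

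Total counts were between 21965506 and 23852371 in shIFITM3 libraries and between 21342028 and 77228760 in shControl libraries. IFITM3 itself averaged 10.99 ± 1.65 CPM (the count scaled by library size, with TMM factors) in shIFITM3 and 60.1 ± 2.91 CPM in shControl (SD, n = 3 each), so all 6 libraries went with their labels. All 7 epithelial markers were expressed, but they did not move together: EGFR and EPCAM rose, KRT7 and KRT19 did not pass, and CDH1, KRT8 and KRT18 fell by 0.60, 0.50 and 0.29 on the log2 scale. CDH1, which encodes E-cadherin, averaged 117 ± 2.72 CPM in shIFITM3 and 177 ± 2.05 CPM in shControl, and the list's summed level was 8810 to 9033 CPM in shIFITM3 and 9897 to 10020 CPM in shControl. Of 7 fibroblast markers only COL1A1 could be tested, at 11.55 ± 1.74 CPM in shIFITM3 and 9.56 ± 0.842 CPM in shControl (edgeR adjusted p = 0.0381, higher), while DCN and LUM had no count in any library. The leukocyte gene PTPRC averaged 0.321 CPM in shIFITM3 and 0.288 CPM in shControl and was not tested. CD68, the only leukocyte marker that could be tested, averaged 75.9 ± 2.94 CPM in shIFITM3 and 65.8 ± 4.215 CPM in shControl. Its log2 fold change was 0.20 (edgeR adjusted p = 0.00200, higher). Fewer cells of a type and less RNA per cell cannot be told apart in bulk RNA.

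Members moved in both directions. GAS6, DDR1 and AXL rose in shIFITM3 cells, the 3 FGF receptors that could be tested and ROR1 fell, and TYRO3 and MERTK did not pass the test. Of the 9 members tested, 3 rose and 4 fell by the quasi-likelihood test of edgeR (Benjamini-Hochberg adjusted p under 0.05). Over all 14018 genes tested 56.1% passed, 27.7% higher and 28.4% lower. The members' counts, and the counts of each list below, are to be read against these shares. No tested member changed as much as 2-fold. The members' median log2 fold change was -0.09, and over all tested genes the median was -6.33e-05. Libraries of the 2 groups were fully separate in CPM for 8 of the 9 tested members, all but MERTK, and for 60.9% of all tested genes.

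**Figure D1:**
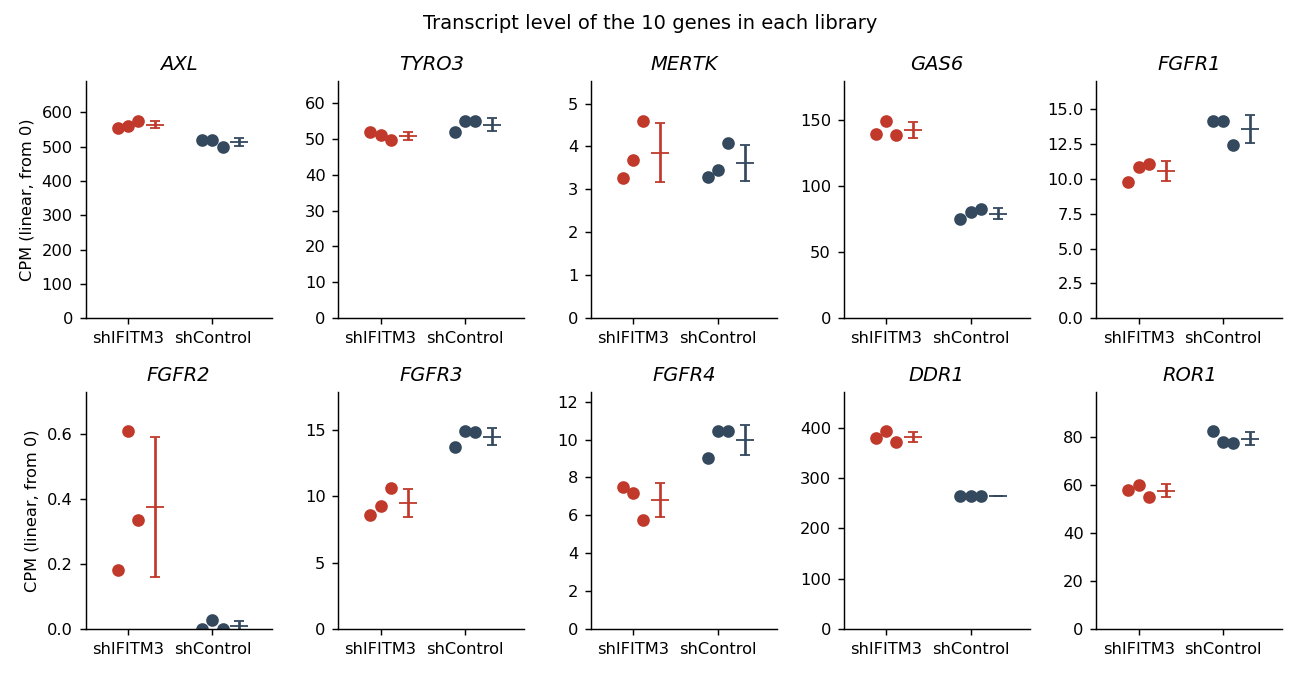
Level of each of the 10 genes in CPM (y axis, linear, from 0) in the 3 shIFITM3 libraries (red) and the 3 shControl libraries (blue), with mean and SD beside the points. GAS6 and DDR1 stand higher in all shIFITM3 libraries, FGFR1, FGFR3, FGFR4 and ROR1 lower, and MERTK overlaps.

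GAS6, the ligand, had the largest change of the tested members. Its level was 139, 149.5 and 138 CPM in shIFITM3 replicates 1, 2 and 3, and 74.8, 80.4 and 82.25 CPM in shControl replicates 1, 2 and 3. The lowest shIFITM3 library was thus far above the highest shControl library. Its log2 fold change was 0.84 with a standard error (SE) of 0.0450 (edgeR adjusted p = 8.78e-14), a 1.80-fold rise, and 9.51% of tested genes changed more in size. GAS6 (chromosome 13, 113820549 to 113864076, GRCh38) shares 333 bases of exon, 13.4% of its exon length in GENCODE release 29, with GAS6-AS1 on the opposite strand. GAS6-AS1 had 6, 2 and 10 counts in shIFITM3 libraries and 0, 23 and 5 counts in shControl libraries, against at least 1587 counts of GAS6 in any library. No other member shares exon bases with a gene of that annotation whose symbol is also among the 26485 counted. Genes of the annotation under other names were not checked.

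AXL (chromosome 19, 41219223 to 41261766, GRCh38), the TAM receptor with the highest level per length here, rose by a small amount. It stood at 556, 560 and 576 CPM in shIFITM3 replicates 1, 2 and 3, and at 519, 519.5 and 499.9 CPM in shControl replicates 1, 2 and 3. The groups did not overlap, though they lay close. The mean was 564 ± 10.8 CPM in shIFITM3 and 513 ± 11.2 CPM in shControl (SD, n = 3 each), for a log2 fold change of 0.14 (edgeR SE 0.0292, 95% interval 0.08 to 0.20, adjusted p = 0.000315). Of all tested genes, 71.1% changed more in size than AXL. There were 25.1, 26.7 and 24.0 GAS6 counts per 100 AXL counts in shIFITM3 libraries and 14.4, 15.5 and 16.45 in shControl libraries.

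TYRO3, known mostly from the nervous system, was at 51.8, 51.0 and 49.7 CPM in shIFITM3 replicates 1, 2 and 3, and at 51.9, 54.9 and 55.1 CPM in shControl replicates 1, 2 and 3. The 2 sets nearly met, with shControl replicate 1 just above the highest shIFITM3 library. The log2 fold change of -0.09 did not pass (95% interval -0.20 to 0.01, edgeR adjusted p = 0.134). TYRO3P, a pseudogene of TYRO3, had at most 3 counts in any library. MERTK, known best from macrophages and the retina, where its product helps clear dead cells and shed photoreceptor tips, had 72, 85 and 110 counts in shIFITM3 and 70, 266 and 112 counts in shControl. That is 3.27, 3.70 and 4.60 CPM in shIFITM3 and 3.30, 3.455 and 4.09 CPM in shControl, with full overlap. Its log2 fold change was 0.10 with a 95% interval of -0.28 to 0.48 (edgeR adjusted p = 0.667), or 0.825 to 1.39 as a fold.

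Within the TAM family AXL held most of the counts, taken without regard to length. It had 91.0%, 91.1% and 91.4% of the family's counts in shIFITM3 libraries and 90.4%, 89.9% and 89.4% in shControl libraries. TYRO3 held 8.22 ± 0.304% in shIFITM3 and 9.47 ± 0.408% in shControl (SD, n = 3 each). For both shares the groups did not overlap, and the exact two-sided permutation p was 0.10, the smallest that 3 against 3 samples allow. MERTK held 0.622 ± 0.09895% in shIFITM3 and 0.634 ± 0.0844% in shControl (exact permutation p = 0.90).

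The promoters of AXL and GAS6 are shown because both genes rose and because SP1, AP-1, TEAD and hypoxia factors have been described at the AXL promoter. Each sequence gives the 250 bases before the gene's first start in RefSeq (GRCh38.p14), 5′ to 3′ on the gene's strand, AXL at chr19:41218973-41219222 on the plus strand and GAS6 at chr13:113864077-113864326 on the minus strand. Capitals mark GC boxes (GGGCGG on either strand), the letters that SP1 and its relatives bind.
AXL: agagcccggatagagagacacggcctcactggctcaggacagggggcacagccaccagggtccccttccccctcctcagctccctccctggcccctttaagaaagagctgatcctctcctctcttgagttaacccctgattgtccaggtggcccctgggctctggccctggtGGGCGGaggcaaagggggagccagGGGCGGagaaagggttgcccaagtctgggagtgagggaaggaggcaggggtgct
GAS6: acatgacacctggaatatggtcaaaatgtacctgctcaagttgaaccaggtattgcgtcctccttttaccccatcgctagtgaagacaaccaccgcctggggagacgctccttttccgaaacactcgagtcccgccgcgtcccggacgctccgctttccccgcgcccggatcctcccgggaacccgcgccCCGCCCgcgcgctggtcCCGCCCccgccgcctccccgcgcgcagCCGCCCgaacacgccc
AXL has 2 GC boxes and GAS6 has 3, and 42.6% of the 35116 promoters in the table have at least 1 in the same window. TGANTCA (AP-1), GGAATG (TEAD) and ACGTG (a form of the hypoxia element core), read on both strands, had no match in either window. Of all promoters, 6.57%, 11.9% and 18.5% have a match. The GCGTG form of the hypoxia element core was not counted over the promoters. The GAS6 window holds it on the other strand, as cacgc near its end. These counts describe letters and say nothing of binding.

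Of 8 tested genes for factors described at the AXL promoter, 2 rose and 4 fell, with a median log2 fold change of -0.09. HIF1A, the oxygen-regulated subunit of hypoxia-inducible factor, averaged 135 ± 3.37 CPM in shIFITM3 and 190 ± 3.51 CPM in shControl (log2 fold change -0.50, SE 0.0369). JUN, a subunit of AP-1, fell by 0.32 and YAP1, the coactivator of TEAD factors, fell by 0.23 on the log2 scale. FOSL1, another AP-1 subunit, rose by 0.29. SP1 and SP3 were at -0.02 and -0.03 and did not pass (edgeR adjusted p = 0.631 and 0.555), and are named after their values were seen.

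In the list of GAS6 and TAM partners, 3 of 9 tested genes rose and 2 fell (median -0.06). PROS1, which encodes protein S, a ligand of TYRO3 and MERTK, averaged 3.49 ± 0.710 CPM in shIFITM3 and 1.10 ± 0.427 CPM in shControl (SD, n = 3 each), for a log2 fold change of 1.68 (edgeR SE 0.275, adjusted p = 1.46e-05). LGALS3, which encodes galectin-3, described as a MERTK ligand, was at -0.06 and did not pass (edgeR adjusted p = 0.294). GGCX, the enzyme that carboxylates GAS6 and protein S, fell by 0.31 on the log2 scale, and of the enzymes that recycle vitamin K, VKORC1L1 rose by 0.20 and VKORC1 fell by 0.19. SOCS3, a feedback inhibitor of cytokine signalling, rose by 0.54. LGALS3 and VKORC1 are named after their values were seen. The sheddase genes ADAM10 and ADAM17, whose products cut AXL from the surface, were at -0.00198 and -0.06 (edgeR adjusted p = 0.963 and 0.26) and are named after their values were seen.

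Of the FGF receptors, FGFR1, FGFR3 and FGFR4 fell, and FGFR2 was too low to test. FGFR3 (chromosome 4, 1793293 to 1808867, GRCh38), best known for its part in skeletal growth and bladder cancer, was at 8.59, 9.26 and 10.6 CPM in shIFITM3 replicates 1, 2 and 3, and at 13.7, 14.9 and 14.9 CPM in shControl replicates 1, 2 and 3. Every shIFITM3 library was below every shControl library. The log2 fold change was -0.61 (edgeR SE 0.103, adjusted p = 1.95e-05). Without shIFITM3 replicate 1 the log2 fold change was -0.55 for FGFR3 and -0.64 for FGFR4, so which of the 2 fell more depends on single libraries. FGFR4 (chromosome 5, 177086915 to 177098144), a receptor often paired with beta-klotho and FGF19 in liver, was at 7.497, 7.17 and 5.78 CPM in shIFITM3 and at 9.05, 10.4 and 10.4 CPM in shControl, again with no overlap. Its log2 fold change was -0.56 (edgeR SE 0.122, adjusted p = 0.000403).

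FGFR1, the FGF receptor named most often in resistance to EGFR inhibitors, was at 9.77, 10.8 and 11.1 CPM in shIFITM3 replicates 1, 2 and 3, and at 14.2, 14.2 and 12.4 CPM in shControl replicates 1, 2 and 3. shControl replicate 3 was the closest to the shIFITM3 libraries and still above them. In the fit this was a log2 fold change of -0.37 (edgeR SE 0.101, 95% interval -0.57 to -0.16, adjusted p = 0.00339). The 95% intervals of the log2 fold changes of FGFR1, FGFR3 and FGFR4 overlap one another, and whether the 3 falls differ in size was not tested.

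FGFR2, the FGF receptor typical of epithelia, was at trace level. It had 4, 14 and 8 counts in shIFITM3 replicates 1, 2 and 3, and 0, 2 and 0 counts in shControl replicates 1, 2 and 3, the 2 counts being in the deepest library. In CPM this is 0.182, 0.609 and 0.335 in shIFITM3 and 0, 0.0260 and 0 in shControl, where a count of 0 allows up to 0.141 CPM in replicate 1 and 0.109 CPM in replicate 3. Summed over libraries there were 26 counts in shIFITM3 and 2 in shControl, a ratio of CPM of 23.7 with an exact 95% Poisson interval of 5.93 to 206, which covers counting error only. Among genes whose highest count was under 20, between 75.3% and 83.2% of the non-zero counts in a library were even, and every FGFR2 count is even, so counts may come in pairs. Counted as pairs, the interval is 3.56 to 1007. FGFR2 was too low for the filter and has no test in the fit used here. Without the filter the edgeR adjusted p was 0.00143.

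As shares of all FGF receptor counts, FGFR1 held 38.7 ± 1.17% in shIFITM3 and 35.7 ± 2.71% in shControl, FGFR3 held 34.8 ± 2.94% in shIFITM3 and 38.05 ± 1.17% in shControl, and FGFR4 held 25.1 ± 4.06% in shIFITM3 and 26.2 ± 1.60% in shControl (SD, n = 3 each). The exact two-sided permutation p values were 0.20, 0.30 and 0.80. The family's total was 573, 641 and 665 counts in shIFITM3 libraries and 784, 3041 and 1034 counts in shControl libraries, and within shIFITM3 the share of FGFR4 ran between 20.75% and 28.80%.

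**Figure D2:**
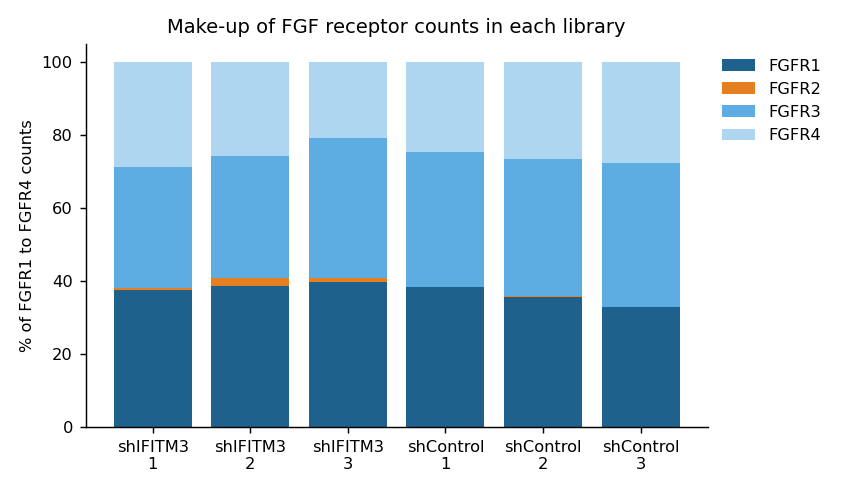
Share of FGFR1, FGFR2, FGFR3 and FGFR4 (stacked, percent of their summed counts, y axis) in each shIFITM3 library and each shControl library (x axis). FGFR1, FGFR3 and FGFR4 hold between 20.75% and 39.85% each in all 6 libraries, and FGFR2 (orange) takes 0.698% to 2.18% in shIFITM3 and at most 0.0658% in shControl.

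The promoters of FGFR3 and FGFR4 are shown because both fell and both have many GC boxes. Windows and capitals are as for AXL, with FGFR3 at chr4:1793043-1793292 and FGFR4 at chr5:177086665-177086914, both on the plus strand.
FGFR3: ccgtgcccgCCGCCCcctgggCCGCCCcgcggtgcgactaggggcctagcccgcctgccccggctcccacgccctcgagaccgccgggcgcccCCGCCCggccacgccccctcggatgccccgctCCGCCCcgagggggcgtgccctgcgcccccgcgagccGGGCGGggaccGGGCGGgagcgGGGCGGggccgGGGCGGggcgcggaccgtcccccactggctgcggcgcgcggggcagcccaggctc
FGFR4: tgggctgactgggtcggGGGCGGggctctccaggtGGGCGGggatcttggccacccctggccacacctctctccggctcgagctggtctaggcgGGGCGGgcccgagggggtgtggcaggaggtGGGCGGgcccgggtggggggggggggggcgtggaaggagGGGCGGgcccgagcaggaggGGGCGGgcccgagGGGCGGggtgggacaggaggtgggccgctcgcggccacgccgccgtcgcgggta
FGFR3 has 8 GC boxes and FGFR4 has 7, and 1.12% of the 35116 promoters have 7 or more. The threshold of 7 equals FGFR4's own count and both promoters were picked for their many boxes, so this share is no test. Neither window has a match to the AP-1, TEAD or hypoxia letters given above. ROR1, which also fell, has 0 GC boxes, as has DDR1, which rose. TYRO3 and FGFR2 have 3 each and MERTK has 4, and the promoter of FGFR1 was not analysed here.

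Ligands and partners of the FGF receptors moved both ways. Of 22 FGF genes listed, 6 were high enough to be tested, and 1 rose and 2 fell (median log2 fold change 0.35). FGF2, basic fibroblast growth factor, averaged 20.35 ± 1.475 CPM in shIFITM3 and 13.85 ± 1.46 CPM in shControl (log2 fold change 0.54, SE 0.0933, edgeR adjusted p = 2.69e-05). FGF18 was low, at 0.316 ± 0.1215 CPM in shIFITM3 and 0.926 ± 0.188 CPM in shControl, and fell by 1.565 on the log2 scale. FGF11, an intracellular member of the family that is not known to act through these receptors, fell by 0.27, a call that ended without shIFITM3 replicate 3 (edgeR adjusted p = 0.0861). FGF14, also intracellular, was at 0.71 and did not pass (edgeR adjusted p = 0.0544); it passed without shIFITM3 replicate 1 (0.0244), without shControl replicate 1 (0.0430), with the deepest library thinned (0.0425), with limma-voom (0.0389) and with no filter (0.0494).

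Among 19 tested co-receptors, heparan sulfate genes and adaptors of FGF signalling, 8 rose and 5 fell (median 0.13). FGFBP1, a secreted carrier that frees FGF2 from the matrix, averaged 20.4 ± 0.514 CPM in shIFITM3 and 7.01 ± 0.0716 CPM in shControl (log2 fold change 1.54, SE 0.0944, edgeR adjusted p = 1.19e-12). The heparan sulfate proteoglycan gene GPC4 rose by 1.10, whereas its relative GPC1 fell by 0.48 on the log2 scale to 434 ± 27.9 CPM in shIFITM3, against 606 ± 27.0 CPM in shControl. IL17RD, also called SEF, an inhibitor of FGF signalling, rose by 1.05. FRS2, the docking protein that links FGF receptors to GRB2, was at 34.85 ± 2.60 CPM in shIFITM3 and 33.8 ± 1.67 CPM in shControl (log2 fold change 0.05, edgeR adjusted p = 0.554); FRS2 is named after its values were seen.

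DDR1 (chromosome 6, 30880970 to 30900156, GRCh38), which adhering epithelial cells use to sense collagen, rose. It was at 380, 393 and 372 CPM in shIFITM3 replicates 1, 2 and 3, and at 264, 265 and 265 CPM in shControl replicates 1, 2 and 3. The shControl libraries were almost identical and all below the shIFITM3 libraries. DDR1 had a log2 fold change of 0.53 (edgeR SE 0.0316, adjusted p = 7.82e-13), a 1.44-fold rise, and 21.6% of tested genes changed more in size. DDR2, the other collagen receptor of this family, averaged 0.259 CPM in shIFITM3 and 0.188 CPM in shControl, was not tested, and is named after its values were seen.

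Of 10 tested genes in the list of DDR2 and collagens, 5 rose and 2 fell (median 0.15). COL4A1, a basement membrane collagen chain, averaged 6.70 ± 0.719 CPM in shIFITM3 and 20.6 ± 3.56 CPM in shControl (log2 fold change -1.62, SE 0.1199, edgeR adjusted p = 4.03e-11). COL5A1, a fibrillar chain, fell by 0.49 on the log2 scale. COL4A5 rose by 0.27 and COL4A6 by 0.16, both chains of a separate basement membrane network. The COL4A6 call ended without shControl replicate 2 (edgeR adjusted p = 0.0544).

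ROR1 (chromosome 1, 63774017 to 64181498, GRCh38) fell. It was at 58.1, 60.1 and 54.95 CPM in shIFITM3 replicates 1, 2 and 3, and at 82.5, 78.1 and 77.8 CPM in shControl replicates 1, 2 and 3, with a wide gap between the groups. ROR1 had a log2 fold change of -0.46 (edgeR SE 0.0486, adjusted p = 2.11e-08), a level of 0.727 times that of shControl. ROR2, its close relative, averaged 0.116 CPM in shIFITM3 and 0.0243 CPM in shControl and was not tested. NKX2-1, a lung lineage factor known to induce ROR1 in lung adenocarcinoma, averaged 0.0859 CPM in shIFITM3 and 0.0295 CPM in shControl. Every library had at most 4 counts of NKX2-1. ROR2, NKX2-1 and WNT5A are named after their values were seen.

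Of the 5 tested genes around ROR1, 4 rose (median 0.26), and the fifth, WNT5A, did not pass. Of all tested genes 56.1% passed, with 27.7% of all tested genes higher and 28.4% lower. No test was made of a list this short. WNT5A, the ligand best tied to ROR receptors, was at 139 ± 3.16 CPM in shIFITM3 and 141 ± 3.85 CPM in shControl and did not pass (edgeR adjusted p = 0.695), whereas WNT5B averaged 35.4 ± 1.67 CPM in shIFITM3 and 20.9 ± 0.293 CPM in shControl (log2 fold change 0.765, SE 0.0669). CAV1 and CAVIN1, listed in the table as PTRF, build the caveolae that ROR1 is known to stabilise, and rose by 0.12 and 0.26. CAVIN3, listed as PRKCDBP, rose by 1.15. The caveolar genes and ROR1 therefore changed in opposite directions in these libraries.

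**Figure D3:**
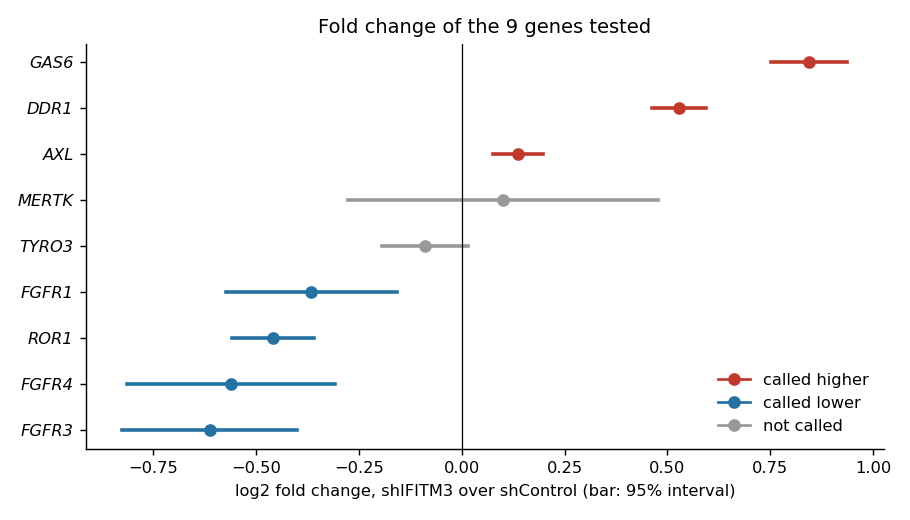
Log2 fold change of shIFITM3 over shControl (x axis) for the 9 members that could be tested, with 95% intervals from the edgeR fit. GAS6, DDR1 and AXL lie above 0, FGFR1, ROR1, FGFR4 and FGFR3 below it, and the intervals of MERTK and TYRO3 span it.

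To compare genes with one another, CPM was divided by the length of each gene's exons in GENCODE release 29, in kilobases (kb). On this scale AXL had the highest level of the 10 genes, 115 ± 2.201 CPM per kb in shIFITM3 and 105 ± 2.29 in shControl (SD, n = 3 each). DDR1 followed with 71.6 ± 2.02 CPM per kb in shIFITM3 and 49.6 ± 0.0913 in shControl, and GAS6 with 57.2 ± 2.47 CPM per kb in shIFITM3 and 31.8 ± 1.55 in shControl. ROR1 (8.76 ± 0.394 in shIFITM3, 12.1 ± 0.401 in shControl) and TYRO3 (5.64 ± 0.116 in shIFITM3, 5.995 ± 0.197 in shControl) formed the middle. FGFR3 and FGFR4 could not be ordered, with overlapping libraries at 2.13 ± 0.233 and 2.13 ± 0.286 CPM per kb in shIFITM3 and at 3.25 ± 0.149 and 3.12 ± 0.251 in shControl. FGFR1, MERTK and FGFR2 came last, at 1.62, 0.878 and 0.05595 CPM per kb in shIFITM3 and 2.085, 0.823 and 0.00129 in shControl. When the length of the longest coding transcript was used instead, an alternative chosen after seeing the data, DDR1 came above AXL in shIFITM3 (132.5 against 119 CPM per kb) and below it in shControl (91.9 against 108), so the order of this pair depends on which transcripts are counted.

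Among 58 receptor tyrosine kinase genes ranked by mean CPM per kb of exon, AXL was number 2 in both groups, behind MET. DDR1 was number 4 in shIFITM3 and 5 in shControl, ROR1 number 17 in shIFITM3 and 12 in shControl, and FGFR3 number 25 in shIFITM3 and 20 in shControl. AXL made up 15.7%, 15.7% and 16.35% of the summed receptor level per kb in shIFITM3 libraries and 17.6%, 17.7% and 17.4% in shControl libraries. So the share of AXL was lower in every shIFITM3 library although its CPM was higher. DDR1 took 9.90 ± 0.222% in shIFITM3 and 8.315 ± 0.134% in shControl, and the 4 FGF receptors together 0.821 ± 0.01605% in shIFITM3 and 1.42 ± 0.0678% in shControl (SD, n = 3 each). With the length of the longest coding transcript instead, AXL ranked number 3 in shIFITM3 and 2 in shControl. DDR1 then ranked number 2 in shIFITM3 and 3 in shControl. The shares were not computed with that length.

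**Figure D4:**
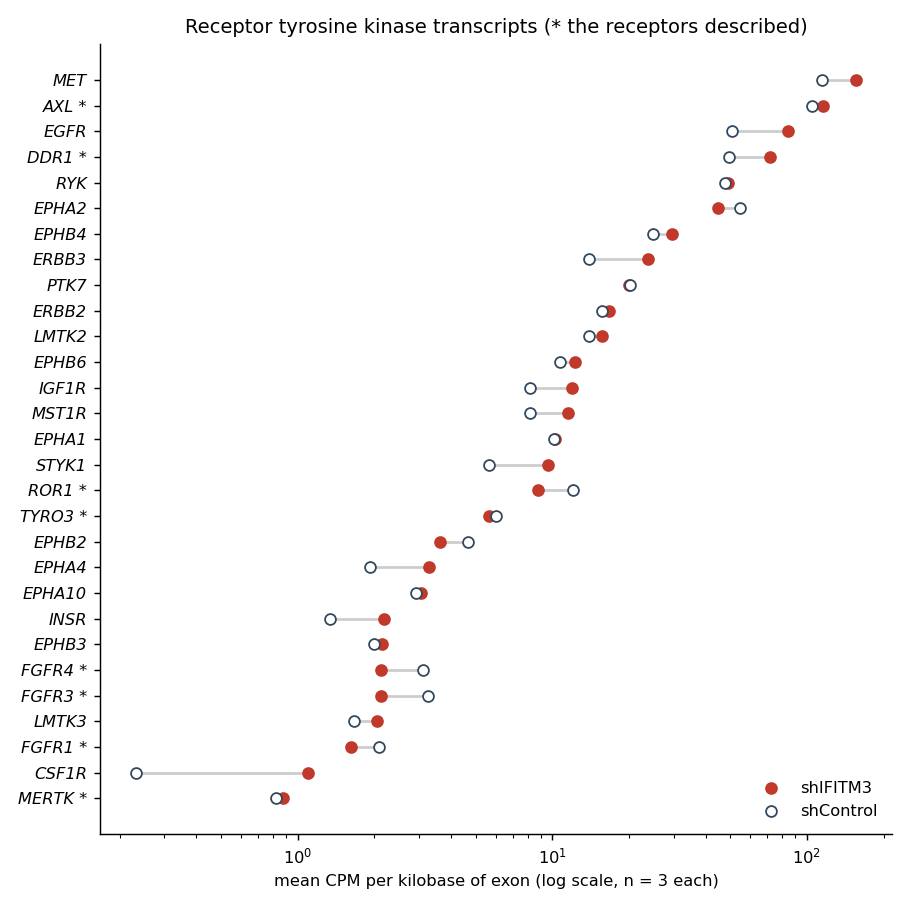
Mean level of 29 of 58 receptor tyrosine kinase genes, those above 0.5 CPM per kb in shIFITM3 (x axis, log scale), in shIFITM3 (filled red) and shControl (open). Stars mark the receptors described here that are above this level. They run from AXL near the top, at 115 in shIFITM3 and 105 in shControl, to MERTK at the bottom. FGFR2, at 0.056 in shIFITM3, lies below the cutoff and is not shown.

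Of the 25 other receptor tyrosine kinase genes tested, 14 rose and 2 fell, with a median log2 fold change of 0.24. Over all tested genes 27.7% rose and 28.4% fell. EGFR, the oncogenic driver of the line, rose by 0.74 (SE 0.0306), its partner ERBB3 by 0.78, MET by 0.45 and IGF1R by 0.55. CSF1R and KDR, receptors of myeloid and endothelial cells, were the 2 that rose at least 2-fold (log2 fold changes of 2.40 and 3.03), with 4.40 and 2.69 CPM in shIFITM3 and 0.922 and 0.348 CPM in shControl, and are named after their values were seen. Of 5 leukocyte markers only CD68 could be tested, and it was called higher in shIFITM3. The summed level of the 5 markers was 73.1 to 78.5 CPM in shIFITM3 and 63.35 to 71.2 CPM in shControl. KDR is also in the list of endothelial markers, whose summed level was 5.52 to 6.28 CPM in shIFITM3 and 3.53 to 4.38 CPM in shControl, with CDH5 higher, PECAM1 lower and VWF and TEK too low to be tested. The part of such cells in the CSF1R and KDR values was not tested.

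Most of these receptors use shared adaptors, of which 7 of 16 tested rose and 4 fell (median 0.07). CBLB, a ubiquitin ligase that marks active receptors for breakdown, averaged 13.7 ± 1.46 CPM in shIFITM3 and 6.18 ± 0.659 CPM in shControl (log2 fold change 1.13, SE 0.117, edgeR adjusted p = 1.46e-08). PIK3R1, the regulatory subunit of PI3 kinase, fell by 0.72 on the log2 scale to 14.6 ± 1.81 CPM in shIFITM3, against 24.0 ± 2.61 CPM in shControl. NCK2 rose by 0.37, and PLCG1, the phospholipase docked by FGF receptors, fell by 0.30. GRB2, the adaptor common to nearly all of these receptors, was at -0.03 (edgeR adjusted p = 0.583) and is named after its values were seen.

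AXL often runs with mesenchymal genes in lung cancer. Of 11 such genes tested, 4 rose and 4 fell (median 0.25). FN1 rose by 1.00 and VIM by 1.39 on the log2 scale, while CDH2 fell by 0.48 and TGFB1 by 0.19. The rise of FN1 and VIM was larger than that of AXL, whose log2 fold change was 0.14.

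**Figure D5:**
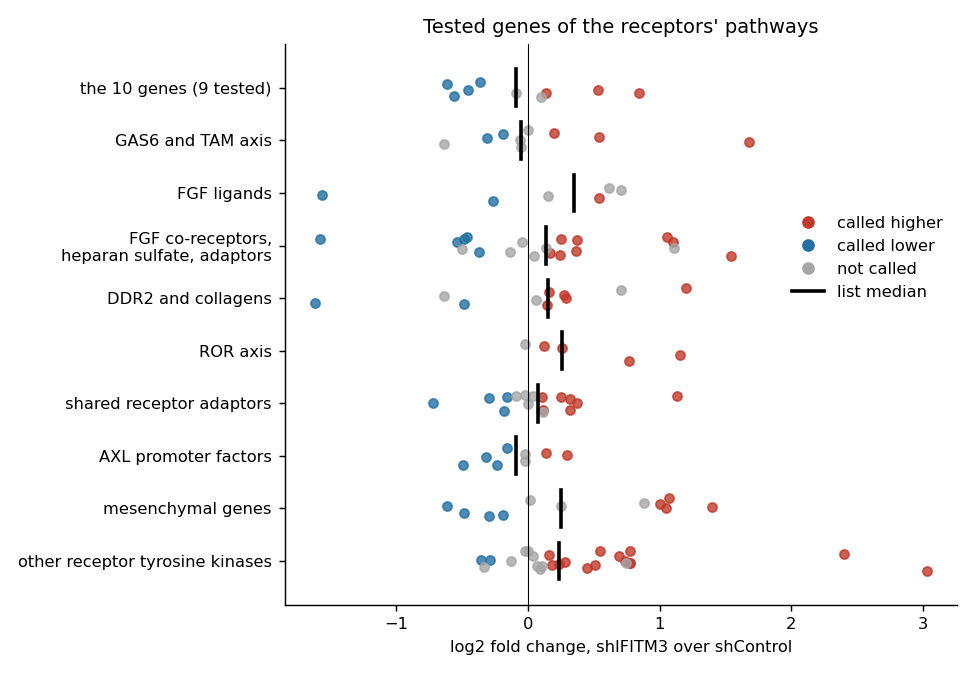
Log2 fold change of shIFITM3 over shControl (x axis) for each tested gene of the 10 and of 9 pathway lists (rows), coloured by call, with the list median as a bar. The 10 genes split to both sides of 0, and other receptor tyrosine kinases lie mostly above it, with 14 higher and 2 lower of 25. Of all tested genes 27.7% were higher and 28.4% lower.

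By Pearson correlation of log2 CPM over the 6 libraries, which ran between 0.9865 and 0.9998 for the pairs named here, the genes most like GAS6, searched only where mean log2 CPM was 2 or more, were ELOVL7 and TMEM184B, those most like AXL were SLC26A6 and ZSWIM8, those most like TYRO3 were CBR3 and ARPC1B, those most like MERTK were RAB12 and TMEM55A, and those most like DDR1 were ARNT2 and MARCH4. For ROR1 they were MAPK12 and BBX, for FGFR1 SKA3 and ERCC8, for FGFR3 MCRS1 and SDCCAG3, and for FGFR4 BARD1 and METTL16. This is a description of 6 libraries in 2 groups, with no test.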

How the data were processed

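RNA from 3 shIFITM3 and 3 shControl cultures of PC-9 cells was sequenced from Illumina stranded mRNA libraries, per the labels. What the authors deposited is a table of raw counts by gene symbol. The submitters' processing notes name fastp 0.23.4, HISAT2 2.2.1 and featureCounts of Subread 2.0.6 on hg38. Which annotation and strand setting were used is not stated there, and genes that overlap antisense could share reads. All columns of the table were used.

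The deposited counts were tested with edgeR 4.0.16 in R 4.3.3 (filterByExpr, TMM, glmQLFit on group, two-sided glmQLFTest, Benjamini-Hochberg adjustment over 14018 tested genes, threshold 0.05). SE was obtained from the fold change and the F statistic, and 95% intervals use the fit's degrees of freedom. A count of 0 allows up to 3 counts. The labels call the replicates biological and say no more, so p-values measure the spread between these samples.

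Exon lengths are from GENCODE 29, places and promoters from RefSeq (GRCh38.p14, the assembly of hg38). All 10 members matched by symbol. The members, the 9 pathway lists and the marker lists were chosen with earlier results of these data known. Named genes are the members, IFITM3, the 4 genes with the smallest p in each list and the 2 most correlated genes per tested member (mean log2 CPM of 2 or more, leaving out symbols of non-coding, antisense or unnamed loci); others are said to be named after their values were seen. Marker genes are named as checks. Alternatives were RLE and upper-quartile scaling, no filter, at least 50 counts in 3 samples, DESeq2 1.42.0, limma-voom (limma 3.58.1), a replicate block, the deepest library thinned, and leaving out each library.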

Additional observations from a re-analysis of the deposited data

How the results depend on the processing

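In all 14 alternatives GAS6, DDR1 and AXL were called higher and FGFR1, FGFR3, FGFR4 and ROR1 lower. With no filter and with DESeq2, FGFR2 was tested too and came out higher (adjusted p 0.00143 and 0.00199), which makes 4 members higher. The log2 fold change of AXL ran from 0.12 to 0.15 (highest adjusted p 0.00632), that of GAS6 from 0.81 to 0.87, of DDR1 from 0.51 to 0.55, of ROR1 from -0.49 to -0.43, of FGFR1 from -0.42 to -0.32 (highest adjusted p 0.0279), of FGFR3 from -0.70 to -0.55 and of FGFR4 from -0.64 to -0.46. TYRO3 passed under none, with adjusted p from 0.0734 to 0.327. MERTK changed sign without shIFITM3 replicate 3 and ran from -0.0504 to 0.202 over the libraries left out. Leaving out single libraries moved the difference in MERTK's share of TAM counts between -0.0661 and 0.0361 points and that of FGFR4's share of FGF receptor counts between -2.95 and 1.07 points, with a change of sign in both.

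The labels do not say whether replicate numbers pair the samples. Deviations from the group means of same-numbered libraries correlated at 0.0157, 0.0330 and 0.00634 across genes. Replicates 1 and 2 of shIFITM3 correlated best with the same-numbered shControl library, and replicate 3 with shControl replicate 1 (0.0252). Correlations this small cannot decide whether the samples were paired. With the replicate block 3865 genes were higher and 4005 lower, against 3885 and 3985 without it, and the members' calls did not change. Depth limits FGFR2 and MERTK, the members with the fewest counts. Thinning the deepest library (shControl replicate 2) to 22872255 counts left all members' calls as they were. With the longest coding transcript as length, the level per kb of DDR1 was 132.5 in shIFITM3 and 91.9 in shControl, against 71.6 in shIFITM3 and 49.6 in shControl with all exons.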

Other observations

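The alpha chains of type IV collagen, which DDR1 can bind, did not move together. COL4A1 and COL4A2 are neighbours that share a promoter region and pair in one collagen molecule. COL4A1 averaged 6.70 ± 0.719 CPM in shIFITM3 and 20.6 ± 3.56 CPM in shControl, a log2 fold change of -1.62 (SE 0.1199), whereas COL4A2 averaged 1.39 ± 0.377 CPM in shIFITM3 and 0.583 ± 0.381 CPM in shControl (SD, n = 3 each), for a log2 fold change of 1.203 (edgeR SE 0.411, adjusted p = 0.0156). COL4A2 was low, with 27, 42 and 27 counts in shIFITM3 replicates 1, 2 and 3. It had 18, 58 and 4 counts in shControl replicates 1, 2 and 3, so its fold change leans on few counts. The pair was noticed after its values were seen.

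KL, which encodes alpha-klotho, the co-receptor that lets FGF receptors respond to FGF23, averaged 1.35 ± 0.507 CPM in shIFITM3 and 4.04 ± 0.455 CPM in shControl, a log2 fold change of -1.58 (edgeR SE 0.239, adjusted p = 4.97e-06). KL was low, with 42, 28 and 22 counts in shIFITM3 replicates 1, 2 and 3, and FGF23 had no count in any library. FGFR1, FGFR3 and FGFR4 fell as well, but of the 19 tested genes in the list of KL, 8 rose and 5 fell. KL was chosen and FGF23 named after their values were seen.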
